A study of Mus musculus with 12 samples.

Results

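The 6 genes followed here belong to the neurotrophin system: the ligands *Bdnf* and *Ntf3*, the Trk receptors *Ntrk2* and *Ntrk3*, the p75 receptor *Ngfr*, and *Sort1*, which encodes sortilin. They were picked by symbol and found by their Entrez IDs, and all 6 were present among the 27179 gene IDs of the count table. Hippocampi had been taken from 12 mice aged 3 months, 6 WT and 6 *Nell-1+/6R*, and each genotype was made up of 3 females and 3 males. *Nell-1+/6R* mice carry, in every cell, 1 copy of the 6R allele of *Nell1*, a loss-of-function allele made by chemical mutagenesis, whereas WT mice carry none, and no other treatment or allele is named for either group. The labels give no strain. Each library was made from whole hippocampus, so that fewer cells of a type and less RNA per cell cannot be told apart in any value below.

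Neurotrophins are secreted proteins that are made as longer precursors and cut to their mature form. Mature brain-derived neurotrophic factor (BDNF, from *Bdnf*) binds the receptor tyrosine kinase TrkB (*Ntrk2*), and neurotrophin-3 (*Ntf3*) binds chiefly TrkC (*Ntrk3*), and both kinases signal through Ras-MAPK, PI3K-Akt and phospholipase C gamma. The p75 receptor (*Ngfr*) binds all neurotrophins and, together with sortilin, their uncut precursors, while sortilin also sorts BDNF inside the cell. In the hippocampus BDNF and TrkB are best known for their part in synaptic plasticity, in neurons that are made in the dentate gyrus throughout life, and in the response to activity.

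*Bdnf* is transcribed from several start sites, each with a first exon of its own, which are joined to a shared coding exon. The RefSeq annotation of GRCm38.p6 gives 7 promoter windows for *Bdnf*, from 250 bases before to 50 bases after a start, so that each deposited count of *Bdnf* is a sum over these starts. One of them is shown because its start is known for its response to neuronal activity and because it was the 1 window among the 11 found for *Bdnf*, *Ntf3*, *Ntrk2* and *Ngfr* that held the core of a cyclic AMP response element, TGACG on either strand, which is drawn in capitals as its complement. It lies at chr2:109692186-109692485 on the plus strand of GRCm38 and has a GC content of 48.7%.

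*Bdnf* window 3: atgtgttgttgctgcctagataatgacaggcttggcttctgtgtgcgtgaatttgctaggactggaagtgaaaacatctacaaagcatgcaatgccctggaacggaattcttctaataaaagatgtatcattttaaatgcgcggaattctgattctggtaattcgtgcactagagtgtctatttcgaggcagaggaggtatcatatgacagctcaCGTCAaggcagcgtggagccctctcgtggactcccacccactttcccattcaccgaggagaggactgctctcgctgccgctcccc

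The full element, TGACGTCA, was in 0 of the 11 windows and in 1.79% of all 32851 windows searched, and its core was in 20.8% of all windows. The E-box CACGTG was in 1 of the 11, a window of *Ntf3*, and in 7.15% of all windows, and the GC box GGGCGG was in 6 of the 11 and in 35.7% of all. The TATA box TATAAA was in 0 of the 11 and in 13.6% of all. Both strands were searched, and every TGACGTCA contains the TGACG core, so those 2 shares overlap.

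The libraries held between 10834905 and 16016317 counts, with a median of 12213500 in WT and 13507300 in *Nell-1+/6R* mice. *Nell1* itself separated the genotypes, with 36.5 ± 4.55 CPM (counts per effective library size; SD, n = 6) in WT mice against 19.1 ± 1.77 CPM in the heterozygotes, a log2 fold change of -0.93 (SE 0.0799; edgeR quasi-likelihood test, adjusted p = 0.00015). All 13 markers of hippocampal principal neurons were detected in every mouse, from *Iyd* with 34 to 67 counts to *Camk2a* with 85571 to 118903. Of these, *Fibcd1* and *Spink8* were higher and *C1ql2* lower in the heterozygotes at an unadjusted p under 0.05, a level reached by 3.26% of all genes, and the summed level of the 13 ran from 9014 to 12471 CPM in WT and from 9570 to 11123 CPM in heterozygotes. Of 17937 genes tested, 7 passed an adjusted p of 0.05 for genotype, which is 0.039%, and 261, or 1.46%, passed the thresholds of the study, an unadjusted p under 0.05 with a fold change above 1.5.

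Per kilobase of exon, the scale on which levels of different genes can be compared, *Sort1* stood highest and *Ngfr* lowest among the 6 genes. In WT mice *Sort1* was at 103.6 ± 6.50 CPM per kilobase (SD, n = 6 here and below) and *Ntrk2* at 22.6 ± 1.72. Then came *Bdnf* at 6.34 ± 0.923, *Ntrk3* at 5.01 ± 0.338, *Ntf3* at 4.16 ± 0.772 and *Ngfr* at 1.03 ± 0.241 CPM per kilobase. The neighbours *Bdnf* and *Ntrk3* overlapped between mice, and so did *Ntrk3* and *Ntf3*, whereas *Sort1*, *Ntrk2* and *Ngfr* were each set apart from their neighbours in all 12 mice. When the longest transcript replaced the union of exons as the length, the order was kept, although *Ntrk2* moved to 49.9, *Bdnf* to 9.23, *Ntrk3* to 7.67 and *Sort1* to 114.8 CPM per kilobase in WT mice. The table gives 1 count per gene, so the full-length and the truncated, kinase-free forms of TrkB and TrkC are summed in it.

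**Figure D1:**
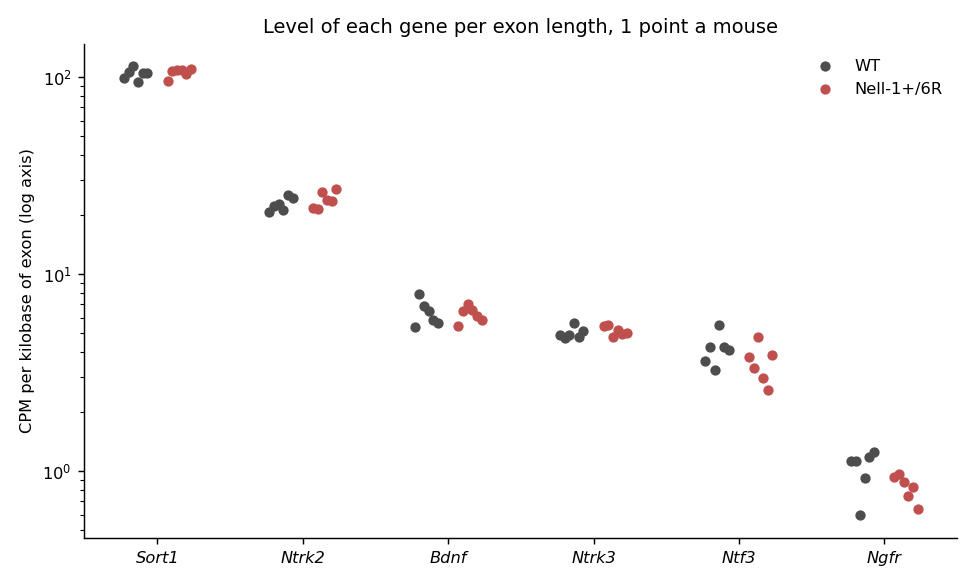
CPM per kilobase of exon on a log axis for the 6 genes, 1 point per mouse, with 6 WT and 6 Nell-1+/6R mice per gene. Sort1 lies near 100 and Ngfr near 1 CPM per kilobase, and within each gene the points of both genotypes overlap.

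None of the 6 genes passed the edgeR quasi-likelihood test for a difference between the genotypes (0 of 6 past an adjusted p of 0.05, and 0 of 6 past an unadjusted p of 0.05, against 3.26% of all 17937 genes; 0 of 6 in DESeq2 and in limma-voom too). The values of both genotypes overlapped for 6 of 6, while the genotypes did not overlap for 27 of 17937 genes, or 0.151%. Log2 fold changes were above 0 for 3 genes and below 0 for 3, and their median was 0.00, as was the median of all genes tested. Every one of the 6 adjusted p-values was 1.00. The 95% intervals are given for each gene below, and 5 of the 6 lay within a 1.5-fold change in either direction, *Ngfr* being the exception.

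Among the ligands, *Bdnf* (Entrez 12064, chr2:109674700-109727043, plus strand) was the more abundant, with 398 to 633 counts per mouse. Its lowest, median and highest values were 33.6, 38.2 and 48.9 CPM in WT mice, and 33.7, 39.2 and 43.9 CPM in *Nell-1+/6R* mice. The *Nell-1+/6R* mice thus lay inside the WT range. The log2 fold change was -0.02 (SE 0.0927, 95% interval -0.22 to 0.18), and an exact two-sided permutation test over the 924 splits of the mice gave p = 0.894. An annotated gene on the opposite strand, *Gm45346*, covers 14.4% of the exon bases of *Bdnf*, and the strand setting of the counting was not given in the sources used here.

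*Ntf3* (Entrez 18205, chr6:126101412-126166772, minus strand) had 60 to 116 counts per mouse. Its lowest, median and highest values were 5.59, 7.14 and 9.46 CPM in WT mice, and 4.41, 6.11 and 8.21 CPM in *Nell-1+/6R* mice. Of the 6 *Nell-1+/6R* mice, 2 lay below the lowest WT mouse and the others within the WT range. This gave a log2 fold change of -0.22 (SE 0.165, 95% interval -0.58 to 0.13; exact permutation p = 0.184). Its scatter between mice of a group was 0.246 on the log2 scale (SD), of which counting error alone would give 0.155.

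**Figure D2:**
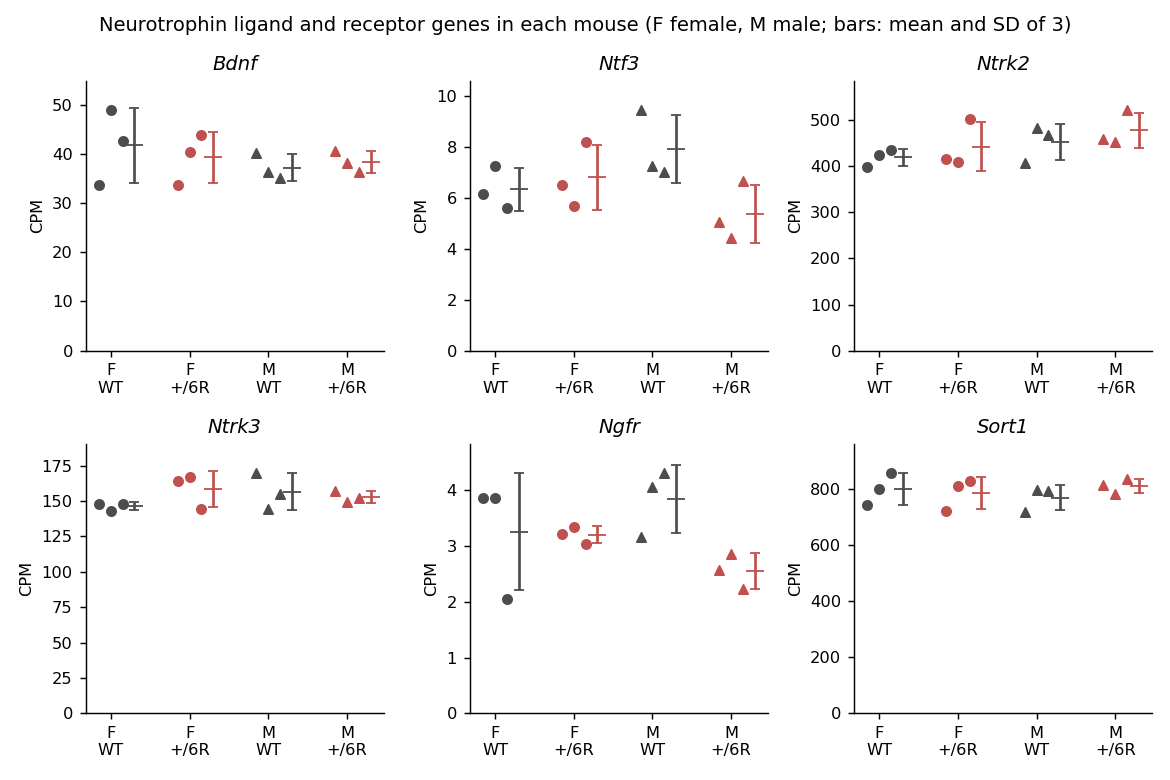
CPM of each gene in each mouse, in 4 groups of 3 by sex and genotype, with the group mean and SD beside the points and axes that start at 0. The genotypes overlap for every gene over both sexes, while among males the 3 Nell-1+/6R mice lie below the 3 WT mice for Ntf3 and for Ngfr, as they do for 5.66% of all genes tested.

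*Ntrk2* (Entrez 18212, chr13:58806472-59133970, plus strand) was deeply covered, with 4400 to 7111 counts per mouse. Its lowest, median and highest values were 399, 430 and 483 CPM in WT mice, and 410, 456 and 522 CPM in *Nell-1+/6R* mice. Of the *Nell-1+/6R* mice, 2 exceeded the highest WT mouse. Their log2 fold change was 0.08 (SE 0.0662, 95% interval -0.06 to 0.22; exact permutation p = 0.314). Its SD between mice of a group was 0.124 on the log2 scale, against 0.0188 from counting error alone.

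*Ntrk3* (Entrez 18213, chr7:78179986-78581034, minus strand) lies on the chromosome of *Nell1*, 27.3 Mb away, and had 1698 to 2419 counts per mouse. Its lowest, median and highest values were 143, 148 and 170.2 CPM in WT mice, and 144, 155 and 167 CPM in *Nell-1+/6R* mice, which all lay inside the WT range. Between the genotypes the log2 fold change was 0.04 (SE 0.0570, 95% interval -0.08 to 0.16; exact permutation p = 0.426). Per length, *Ntrk2* exceeded *Ntrk3* by 3.75 to 5.26 times in the WT mice and by 3.85 to 5.46 times in the *Nell-1+/6R* mice, so that this ratio of the main Trk receptors also overlapped between the genotypes.

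*Ngfr* (Entrez 18053, chr11:95568818-95587698, minus strand) was the most thinly covered of the 6, with 28 to 63 counts per mouse. Its lowest, median and highest values were 2.05, 3.86 and 4.31 CPM in WT mice, and 2.22, 2.95 and 3.34 CPM in *Nell-1+/6R* mice. The WT median stood above every *Nell-1+/6R* mouse, yet the lowest of all 12 values was that of a WT mouse, female WT replicate 3. The log2 fold change was -0.30 (SE 0.183, 95% interval -0.69 to 0.09; exact permutation p = 0.167). Without that mouse it was -0.44 (SE 0.139) and passed an unadjusted p of 0.05, though neither the adjustment over all genes (edgeR quasi-likelihood test, adjusted p = 0.752) nor a 1.5-fold change. In that fit 796 genes had an unadjusted p under 0.05, against 584 with all mice. The SD of *Ngfr* between mice of a group was 0.290 on the log2 scale, of which counting error alone would give 0.222. Per length, the ratio of *Ngfr* to *Ntrk2* had a median of 0.0490 in WT and 0.0346 in *Nell-1+/6R* mice, with overlapping ranges of 0.0263 to 0.0540 and 0.0238 to 0.0456. With the longest transcript as the length, it ran from 0.0108 to 0.0245 over all mice.

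Some markers of the tissue around the hippocampus and of blood vessels were lower in *Nell-1+/6R* mice, the direction of the *Ngfr* value. Of 11 markers of leptomeningeal fibroblasts, the cells of the brain's inner coverings, 11 had a negative log2 fold change and 8 an unadjusted p under 0.05, against 3.26% of all genes tested, with a median of -0.93. Their summed level ran from 134 to 426 CPM in WT mice and from 80.4 to 394 CPM in *Nell-1+/6R* mice. Of 7 markers of mural cells of blood vessels, 4 were lower at an unadjusted p under 0.05, *Acta2* (-1.17) and *Myh11* (-1.01) the furthest. The others were *Rgs5* at 0.08, *Kcnj8* at -0.03 and *Notch3* at -0.02, so the list did not move as a whole. The sum of the 7 ran from 146 to 235 CPM in WT mice against 129.9 to 179 CPM in *Nell-1+/6R* mice. Of 8 markers of choroid plexus epithelium, 8 had a negative log2 fold change and 0 an unadjusted p under 0.05 by edgeR (median -1.0). Their summed level ran from 51.4 to 4621 CPM in WT mice and from 41.6 to 5138 CPM in *Nell-1+/6R* mice, with medians of 456 and 63.2 CPM, and the highest library was that of a heterozygote. Of 10 markers of thalamus and habenula, 2 were lower at that level. One of the latter, *Slc17a6*, the vesicular glutamate transporter of thalamic neurons, was at -1.23 (SE 0.150; edgeR quasi-likelihood test, adjusted p = 0.0035). The part of these cells in the *Ngfr* values was not tested. Basal forebrain cholinergic neurons are also known for *Ngfr*. The summed level of their 5 markers ran from 0.273 to 0.733 CPM in WT mice and from 0.283 to 1.62 CPM in *Nell-1+/6R* mice. Their log2 fold changes lay on both sides of 0, with 3 positive and 1 negative among the 4 tested. *Chat* had 0 to 3 counts per mouse and a value of 1.33, *Slc5a7* had 1 to 13 and 0.024, *Isl1* had 0 to 6 and 1.06, and *Slc18a3*, with 0 to 4 and -2.70, passed the thresholds of the study. The part of these neurons was not tested either.

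*Sort1* (Entrez 20661, chr3:108283974-108361519, plus strand) was the most abundant of the 6, above 99.3% of the genes tested by its CPM, with 7730 to 12579 counts per mouse. Its lowest, median and highest values were 717, 794 and 858 CPM in WT mice, and 722, 812 and 835 CPM in *Nell-1+/6R* mice, which all lay inside the WT range. The log2 fold change was 0.03 (SE 0.0553, 95% interval -0.09 to 0.14; exact permutation p = 0.615). Here too a gene of the opposite strand, *Gm12523*, covers 4.47% of the exon bases.

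Within females none of the 6 genes passed an unadjusted p of 0.05 for genotype, against 2.84% of all genes, and 0 of 6 passed the thresholds of the study, against 1.56%. In males 2 of the 6, *Ntf3* and *Ngfr*, were lower in *Nell-1+/6R* mice at an unadjusted p under 0.05, against 3.37% of all genes, and 1 of them, *Ngfr*, also passed the thresholds, against 2.03%, with a log2 fold change of -0.588 that lay just beyond 1.5-fold. Neither passed the adjustment over all genes tested (edgeR quasi-likelihood test, adjusted p = 1.00 for both).

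The *Ntf3* values of the 3 male WT mice were 9.46, 7.27 and 7.03 CPM, and those of the 3 male *Nell-1+/6R* mice were 5.07, 4.41 and 6.65 CPM. In females they were 6.17, 7.26 and 5.59 CPM in WT mice, and 6.52, 5.70 and 8.21 CPM in *Nell-1+/6R* mice. The groups did not overlap in males and overlapped in females. With 3 mice against 3, the male genotypes did not overlap for 10.4% of all genes tested, and for 5.66% with the *Nell-1+/6R* mice lower, so a gene apart in this way is common. The log2 fold change of *Ntf3* was -0.56 (SE 0.205, 95% interval -1.0 to -0.12) in males and 0.11 (95% interval -0.33 to 0.54) in females. The difference between the sexes, tested as an interaction, was 0.67 (SE 0.288, 95% interval 0.04 to 1.29; edgeR quasi-likelihood test, adjusted p = 0.987). In males the unadjusted p of *Ntf3* no longer lay under 0.05 without male *Nell-1+/6R* replicate 1 (-0.52) or replicate 2 (-0.42) or without male WT replicate 1 (-0.42). The male value passed the thresholds of the study without male *Nell-1+/6R* replicate 3 (-0.74), male WT replicate 2 (-0.62) or male WT replicate 3 (-0.63). None of these fits passed the adjustment over all genes tested. *Ntf3* was the 1 gene of the 6 with an unadjusted interaction p under 0.05, against 3.09% of all genes tested. Leaving out 1 mouse at a time brought that p to 0.05 or more in 6 of 12 edgeR fits.

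The *Ngfr* values of the 3 male WT mice were 3.15, 4.06 and 4.31 CPM, and those of the 3 male *Nell-1+/6R* mice were 2.57, 2.86 and 2.22 CPM. In females they were 3.85, 3.86 and 2.05 CPM in WT mice, and 3.22, 3.34 and 3.04 CPM in *Nell-1+/6R* mice. As for *Ntf3*, the groups overlapped in females and not in males, beside the 5.66% of all genes whose male groups were apart in that direction. The log2 fold change of *Ngfr* was -0.59 (SE 0.246, 95% interval -1.12 to -0.06) in males and -0.02 (95% interval -0.55 to 0.50) in females, and the interaction of 0.57 (95% interval -0.18 to 1.31) did not pass an unadjusted p of 0.05 and was 0.32 without female WT replicate 3. The male *Ngfr* values passed the thresholds of the study in 2 of the 6 fits that left out a male mouse, and in DESeq2 they did not. When the males were fitted alone, *Ngfr* was at -0.581, short of a 1.5-fold change. They were lost without male WT replicate 2 (-0.55) or replicate 3 (-0.50) and without male *Nell-1+/6R* replicate 1 (-0.59) or replicate 3 (-0.50). In the same males the summed leptomeningeal fibroblast markers ran from 192 to 383 CPM in WT mice, against 86.3 to 130.3 CPM in *Nell-1+/6R* mice, without overlap, and in females from 134 to 426 and from 80.4 to 394 CPM, with overlap. *Igf2* makes up much of these sums, and without it they ran from 102 to 139.6 CPM in male WT mice, 56.6 to 81.0 CPM in male *Nell-1+/6R* mice, 80.9 to 203 CPM in female WT mice and 42.7 to 132 CPM in female *Nell-1+/6R* mice. Whether the male *Ntf3* and *Ngfr* values follow those cells was not tested.

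**Figure D3:**
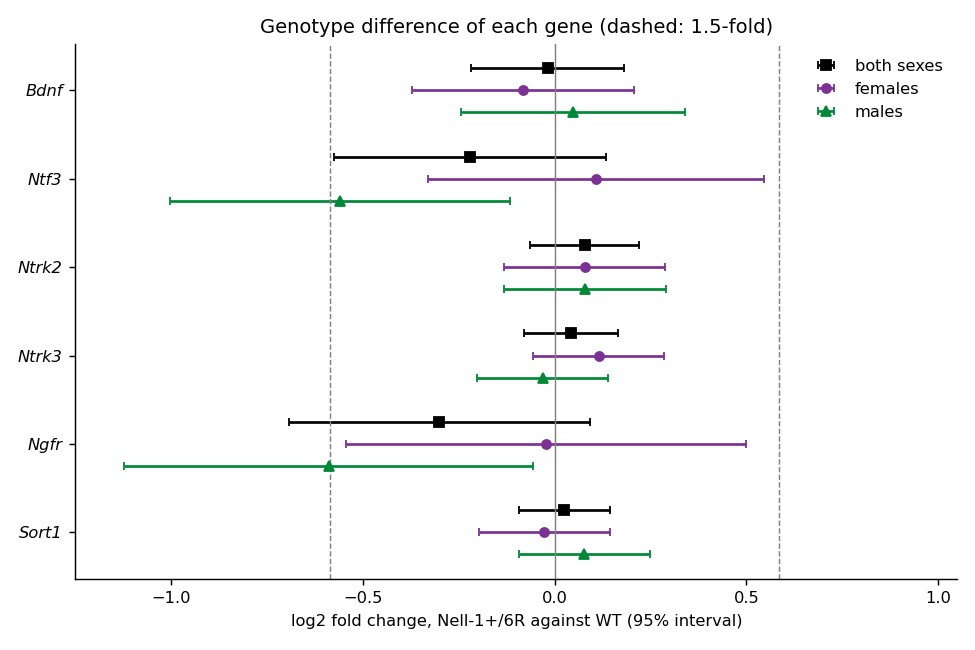
Log2 fold change of each gene, Nell-1+/6R against WT, with its 95% interval, over both sexes (squares), in females (circles) and in males (triangles), with dashed lines at a 1.5-fold change. All intervals of both sexes cover 0, and the male intervals of Ntf3 and Ngfr lie below it.

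None of the 6 genes could be shown to differ by sex. The log2 difference of females against males ran from -0.11 for *Ntrk2* to 0.10 for *Bdnf*, and 0 of 6 had an unadjusted p under 0.05, against 4.72% of all genes tested (edgeR quasi-likelihood test, adjusted p from 0.868 to 0.994).

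The 6 genes were then compared between mice of the same sex and genotype. Over the 12 mice, after the mean of each of the 4 groups was removed, 15 pairs of genes were correlated on the log2 CPM scale. *Ntrk2* and *Ntrk3* lay on opposite sides of their group means in 10 of 12 mice, with Pearson's r of -0.81 (permutation p = 9.9e-04, adjusted over the 15 pairs 0.0148) and Spearman's rho of -0.76 (permutation p = 0.00604, adjusted 0.0906). Without the 2 mice farthest from the median of *Ntrk2*, r was -0.80. The permutations exchanged deviations over all 12 mice, although the deviations in a group of 3 are tied by its mean. Their p-values can therefore be too small. When mice were exchanged only within their group of 3, a test chosen after seeing the data, the exact permutation p was 0.0409 and 0.307 after adjustment, so the pair did not hold under that test. The group means also mattered, since r over all 12 mice without removing them was -0.45.

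*Ntrk2* and *Sort1* lay on the same side of their group means in 10 of 12 mice, with r of 0.73 (permutation p = 0.00833, adjusted 0.0625), rho of 0.71 (permutation p = 0.0130, adjusted 0.0977) and r of 0.72 without the 2 mice farthest from the median. Exchange within groups gave an exact permutation p of 0.0208, or 0.307 after adjustment. Such values were common for *Ntrk2*: of 9873 genes with a mean of at least 10 CPM, 859, or 8.70%, had an r with it as low as that of *Ntrk3*, and 1853, or 18.8%, had one as high as that of *Sort1*. The other 13 pairs had adjusted p-values of 0.499 or more by the permutation test. In particular, neither ligand could be shown to vary with its own Trk receptor.

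**Figure D4:**
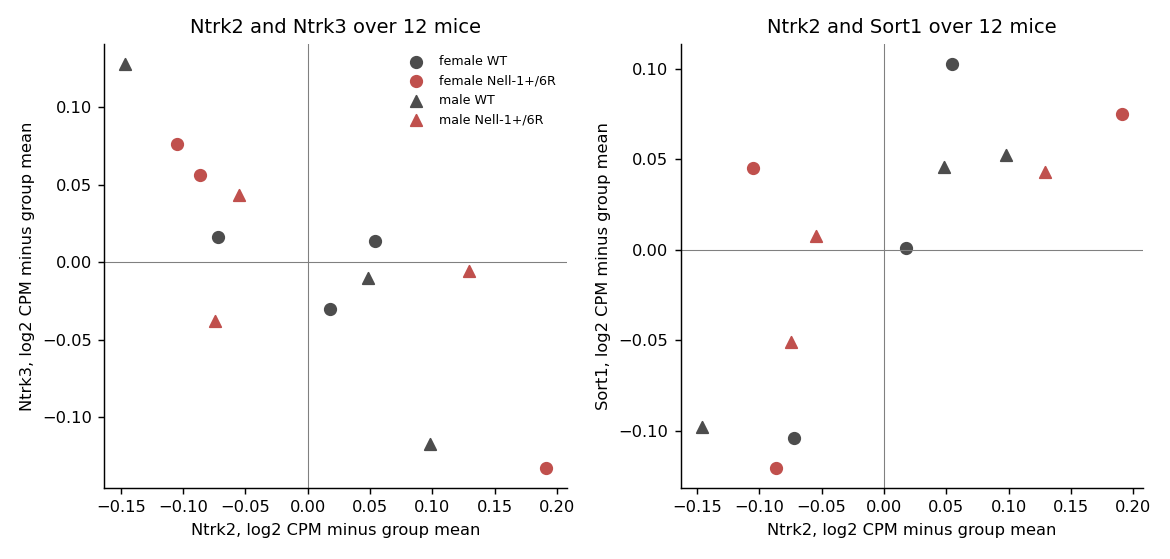
Deviation of each of the 12 mice from its group mean on the log2 CPM scale, for Ntrk2 against Ntrk3 on the left and Ntrk2 against Sort1 on the right, with colour for genotype and shape for sex. In the left plot 10 of the 12 mice lie on opposite sides of the group means for Ntrk2 and Ntrk3, with r of -0.81, and 10 lie on the same side for Ntrk2 and Sort1, with r of 0.73.

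The genes most like each of the 6 in these deviations, over 12 mice and the genes with a mean of at least 10 CPM, are given as a description. For *Bdnf* they were *Nedd4l*, a ubiquitin ligase (r = 0.95), *Kif3c*, a kinesin motor (0.93), and *Scg2*, a secretogranin of dense-core vesicles (0.93). For *Ntrk2* they were *Wdr19* (r = 0.99), a part of the transport machinery of cilia, *Rapgef5* (0.98) and *Mrs2*, a magnesium channel of mitochondria (0.98). For *Ntrk3* they were *Ccdc106* (r = 0.96), *Cd2bp2* and *Hnrnpab* (0.94 each), the last of which binds RNA. For *Sort1* they were *Ankrd33b* (r = 0.97), *Trhde*, an enzyme that breaks down thyrotropin-releasing hormone (0.96), and *Prkca*, a protein kinase C (0.95). For the thinly covered *Ntf3* and *Ngfr* the highest r were those of *Adamts17* (0.92) and of *M6pr*, a mannose 6-phosphate receptor (0.96). Within a mouse the values of both genes come from the same library, depth and dissection, so these correlations carry no test.

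*Ntf5*, which encodes the second ligand of TrkB and lies 4.6 Mb from *Nell1*, was scarce, with 71 counts over all 12 mice and a log2 fold change of -0.42 (95% interval -1.39 to 0.55).

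Around the 6 genes, 118 genes of the pathway in 8 lists were examined, of which 117 were tested. Of these, 3 had an unadjusted p under 0.05, 1 higher and 2 lower, which is 2.56% against the 3.26% of all genes, and 0 passed an adjusted p of 0.05 or the thresholds of the study. Their median log2 fold change was 0.00, with 60 values above 0 and 57 below. In DESeq2 and in limma-voom the count at an unadjusted p under 0.05 was likewise 3. The share of pathway genes was thus near the background.

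By role, the other members of the sortilin family gave 1 of 4, *Sorcs3*, a neuronal sorting receptor, at 38.1 ± 2.41 CPM in WT mice and 42.7 ± 4.72 CPM in heterozygotes (log2 fold change 0.16, SE 0.0720; edgeR quasi-likelihood test, adjusted p = 1.00). Processing and release of the precursors gave 1 of 20, *Pcsk5*, a proprotein convertase, at 17.3 ± 2.08 and 14.5 ± 0.999 CPM (log2 fold change -0.26, SE 0.0827, adjusted p = 1.00 by edgeR), and the log2 fold changes of this list ran from -0.71 to 0.18. *Mmp9*, an extracellular protease that can cut the precursors, had 18 to 50 counts per mouse and a log2 fold change of -0.30. The adaptors and the Ras-MAPK arm gave 1 of 29, *Rps6ka2*, a ribosomal S6 kinase, at 39.4 ± 3.65 and 34.6 ± 1.67 CPM (log2 fold change -0.19, SE 0.0684, adjusted p = 1.00 by edgeR).

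The other lists gave none. They were the 12 partners of p75, where the adaptor *Bex3* had a log2 fold change of 0.06 and the co-receptor *Lingo1* one of 0.08. Likewise there were 13 co-receptors and regulators of Trk, with *Fyn*, a Src-family kinase, at 0.06, and 21 genes of the PI3K-Akt and phospholipase C gamma arm, with the regulatory subunit *Pik3r1* at -0.14. Among 15 regulators of *Bdnf* transcription, the activity-dependent factor *Mef2c* had a log2 fold change of -0.25 and ranged from 904 to 2537 counts per mouse.

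**Figure D5:**
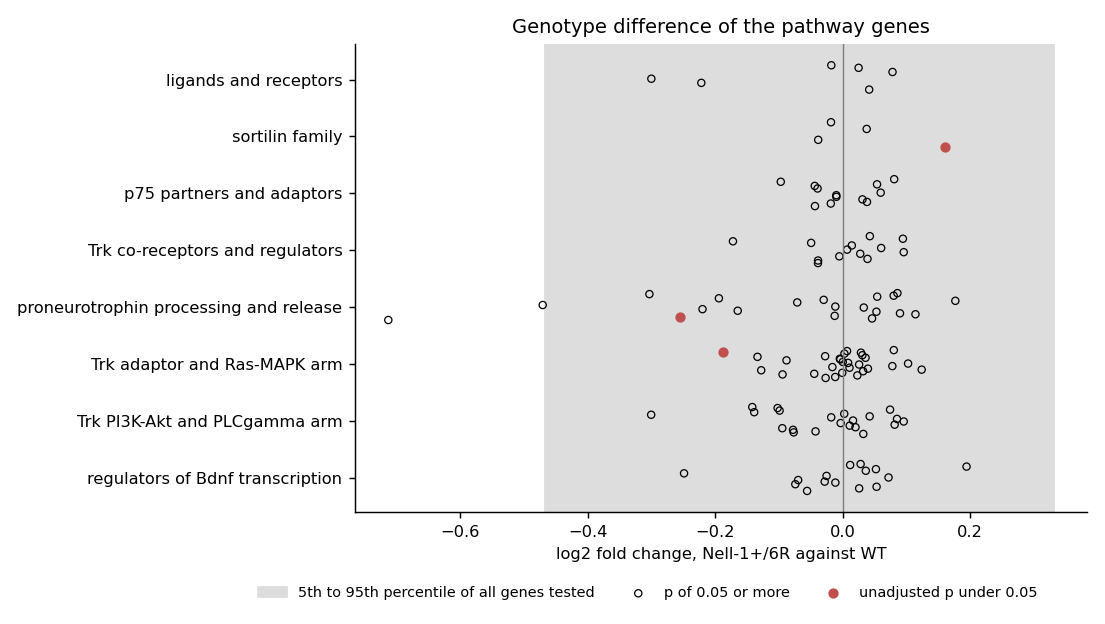
Log2 fold change, Nell-1+/6R against WT, of the 6 ligands and receptors and of the pathway genes by list, 1 point per gene, with filled points for an unadjusted p under 0.05 and a grey band from the 5th to the 95th percentile of all genes tested. The 3 filled points are Sorcs3, Pcsk5 and Rps6ka2, and most points lie within the band.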

How the data were processed

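RNA of 12 hippocampi was sequenced by the authors as single 50-base reads. According to the submitters' processing notes, they aligned the reads with HISAT2 2.1.0 to mm10 (GRCm38) and counted them per gene with featureCounts 2.0.1. The authors deposited raw counts per Entrez gene ID, not normalized and not pooled. The gene model, strand setting and treatment of ambiguous reads were not given in the sources used here. The titles of WT samples contain the abbreviation for heterozygous, and groups were taken from the genotype field. The replicates are separate mice, the WT being littermates of the heterozygotes per the study's methods, and no litter is named. None of the replicate pairs agreed within sampling noise.

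Of the IDs, 25275 were named from RefSeq, 18 from GENCODE M21, and 1886 were left without a name. Genes with at least 0.2 CPM in at least 2 mice, 17937 in all, were tested with edgeR 4.0.16 in R 4.3.3, using TMM factors, a quasi-likelihood test, a model of sex and genotype, and Benjamini-Hochberg adjustment over all genes tested. Effects within a sex and the interaction came from a model of 4 groups. Log2 CPM used a prior count of 2. Single genes were also tested with exact permutation over 924 splits (smallest p 0.00216), and correlations with 100000 permutations. No stretch of 50 bases was shared between transcripts in 36 pairs of family genes. The script was tested on simulated data. Tables and plots were made in Python 3.11.15 (scipy 1.17.1, numpy 2.4.6, pandas 2.3.3, matplotlib 3.10.9). Alternatives (DESeq2 1.42.0 and limma 3.58.1 among them) were other scalings, filters, tools and models, the replicate block, each sex alone, and leaving out each mouse.

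The 6 genes and the lists were chosen with earlier results of these data known. The pathway genes named with values are among the 2 of each list with the smallest p, and the cell type markers named were chosen after their values were seen.
Some genes of the lists are not reported here by name.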

Additional observations from a re-analysis of the deposited data

Results flagged for a closer look

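The genotype effect on *Ntf3* differed between females and males by 0.667 on the log2 scale, as 0.11 in females and -0.56 in males, and was drawn out because the interaction had an unadjusted p under 0.05. It did not pass the adjustment over all genes tested (edgeR quasi-likelihood test, adjusted p = 0.987), and 554 of 17937 genes, or 3.09%, had an interaction at that level. The value rests on 3 mice per group with 60 to 116 counts each, and its unadjusted p was 0.05 or more in 6 of 12 edgeR fits without 1 mouse.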

How the results depend on the processing

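For genotype in the model of sex and genotype, none of the 6 genes passed an adjusted p of 0.05, or the thresholds of the study, without any 1 mouse. The same held in all 11 alternatives of scaling, filter, tool, model or sex. An unadjusted p under 0.05 alone was reached by *Ngfr* without female WT replicate 3 (-0.44), and by *Ntf3* (-0.55) and *Ngfr* (-0.58) in males only. Directions turned where the effect lay near 0 or within 1 sex: *Bdnf* was at 0.056 in males only, *Ntf3* at 0.11 in females only, *Ntrk3* at -0.022 in males only and *Sort1* at -0.024 in females only. Without 1 mouse at a time, *Bdnf* ranged from -0.072 to 0.047, *Ntf3* from -0.33 to -0.12, *Ntrk2* from 0.033 (without female *Nell-1+/6R* replicate 3) to 0.10, *Ntrk3* from 0.016 (without female *Nell-1+/6R* replicate 2) to 0.076, *Ngfr* from -0.44 to -0.23 and *Sort1* from -0.0047 to 0.056. In the same fits the interaction of *Ntf3* ranged from 0.51 to 0.84, with an unadjusted p of 0.05 or more in 6 of 12, that of *Ngfr* from 0.32 to 0.71, and that of *Ntrk2* from -0.10 to 0.084. In the model of 4 groups without 1 male, *Ntf3* in males ranged from -0.74 to -0.42 and *Ngfr* in males from -0.72 to -0.50. Some of those fits passed the thresholds of the study for *Ntf3* or for *Ngfr*, as given above.

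Replicate numbers did not pair the mice, since same-numbered mice correlated from -0.41 to 0.38 over 6 pairs, and 2 of the 6 *Nell-1+/6R* mice correlated best with their own number. With the replicate block the log2 fold changes were -0.01 for *Bdnf*, -0.23 for *Ntf3*, 0.08 for *Ntrk2*, 0.04 for *Ntrk3*, -0.28 for *Ngfr* and 0.03 for *Sort1*, and 9 genes of all tested passed an adjusted p of 0.05.

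Counts over all genes moved more. An adjusted p under 0.05 was reached by 13 genes in DESeq2, 1 in males only and 0 in females only by edgeR, where 340 genes had an unadjusted p under 0.05. The thresholds of the study were passed by 170 genes in DESeq2, 82 with a filter of at least 1 CPM in at least 6 mice and 403 in males only, and by 202 to 400 without 1 mouse. An unadjusted p under 0.05 was reached by 885 genes in males only, and by 382 to 914 without 1 mouse. Depth limits *Ngfr* and *Ntf3*, with 28 to 116 counts per mouse, and the 95% interval of *Ngfr* reaches beyond 1.5-fold. The cause of these shifts was not tested.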
